A study of Arabidopsis thaliana with 4 samples.

Results

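The nuclear photosynthesis genes described here are 51 of the 33557 Arabidopsis thaliana genes quantified in the series. They were set by a fixed list of loci, with no cut on their values, but the list was chosen with earlier results of these data known. It holds 15 genes of the photosystem II antenna (LHCB), 6 of the photosystem I antenna (LHCA) and 10 nuclear subunits of photosystem II (PSB). It also holds 12 of photosystem I (PSA) and 8 genes of carbon fixation (RBCS, RCA, PRK, GAPA and GAPB). The plants were the double mutant hho2phr1, the T-DNA insertion lines phr1 and hho2-1, and the wild type Col-0, all in the Col-0 ecotype. All were grown vertically for 7 days on agar-solidified medium without phosphate, so no plants with phosphate were compared. There was 1 poly(A)+ RNA-seq library per genotype, 4 in all, and the labels do not name the part of the plant that was harvested. PHR1 encodes a MYB-related transcription factor that activates genes of the phosphate starvation response, and HHO2 encodes a GARP-family transcription factor related to HRS1.

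As background, light-harvesting chlorophyll a/b proteins of the LHCB and LHCA families collect light for photosystem II and photosystem I, and they are encoded in the nucleus and imported into the chloroplast. Photosystem II oxidizes water and photosystem I reduces ferredoxin, and the nuclear PSB and PSA subunits join reaction centre subunits that the chloroplast genome encodes. RBCS genes encode the small subunit of Rubisco, RCA its activase, PRK phosphoribulokinase, and GAPA and GAPB the chloroplast glyceraldehyde-3-phosphate dehydrogenase. In leaves these nuclear genes are known to be induced by light and by GLK transcription factors, and to be repressed when chloroplast development fails.

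The values are the authors' FPKM (fragments per unit of transcript length and of library size) with the authors' confidence interval for each gene and library. With 1 library per genotype there is no replicate check, so no p-value or standard deviation is given. The authors' interval does not come from replicates of a genotype, and it is not read here as variation between plants. Depths estimated from the steps of low FPKM values were 40700000 fragments in hho2phr1, 39500000 in phr1, 45000000 in hho2-1 and 48100000 in Col-0. For the 51 genes the median reach of the interval, on either side, was between 21.6% and 22.1% of the FPKM. The widest reach was 40.3%, for LHCB4.3 in phr1, which had an estimated 131 fragments there, and LHCA6 had 142 in phr1. Wide intervals were not limited to genes with few fragments. LHCB1.3 in hho2phr1, at 8056 FPKM and an estimated 336000 fragments, had an interval of 5185 to 10930 FPKM. The 2 lines with the phr1 allele had 6.5 (hho2phr1) and 7.54 (phr1) FPKM of PHR1, and the other lines had 43.2 (hho2-1) and 37.7 (Col-0). With the hho2 allele HHO2 was at 51.8 (hho2phr1) and 59.8 (hho2-1) FPKM, and without it at 81.2 (phr1) and 90.7 (Col-0), so transcript of HHO2 was still counted with the hho2 allele. Of all FPKM, the metallothionein gene MT1A took 13.6% (hho2phr1), 17.2% (phr1), 11.2% (hho2-1) and 13.1% (Col-0).

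Marker genes of roots and of shoots were both present in every library. The summed level of 17 root markers, PYK10 left out, was 363 FPKM in hho2phr1, 335 in phr1, 315 in hho2-1 and 369 in Col-0. The summed level of 16 shoot genes outside photosynthesis was 155 FPKM in hho2phr1, 159 in phr1, 183 in hho2-1 and 180 in Col-0. Of the root markers IRT1 was under 1 FPKM in every library, and of the shoot markers MUTE, CUC2 and CLV3 were, CLV3 being listed at 0 in phr1 and Col-0. In whole-tissue RNA, fewer photosynthetic cells and less of these transcripts per cell cannot be told apart.

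The 51 genes spanned a wide range of levels, and all had at least 1 FPKM in every library. LHCB1.3 (AT1G29930, also called CAB1), the most abundant of the genes for the main trimeric antenna protein, stood at 8056 FPKM in hho2phr1, 6438 in phr1, 6418 in hho2-1 and 6817 in Col-0. It ranked between 2 and 3 among all genes in each library. In contrast, 4 genes stayed under 20 FPKM everywhere: LHCB4.3 and LHCB7 of the photosystem II antenna, and LHCA5 and LHCA6 of the photosystem I antenna. The 51 genes together held 4.01% of all FPKM in hho2phr1, 2.88% in phr1, 3.65% in hho2-1 and 3.27% in Col-0. With MT1A left out of the total these shares were 4.64%, 3.48%, 4.11% and 3.76%, so the order of the genotypes was the same. The 100 most abundant genes included 18 of the 51 in hho2phr1, 13 in phr1, 16 in hho2-1 and 15 in Col-0.

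**Figure D1:**
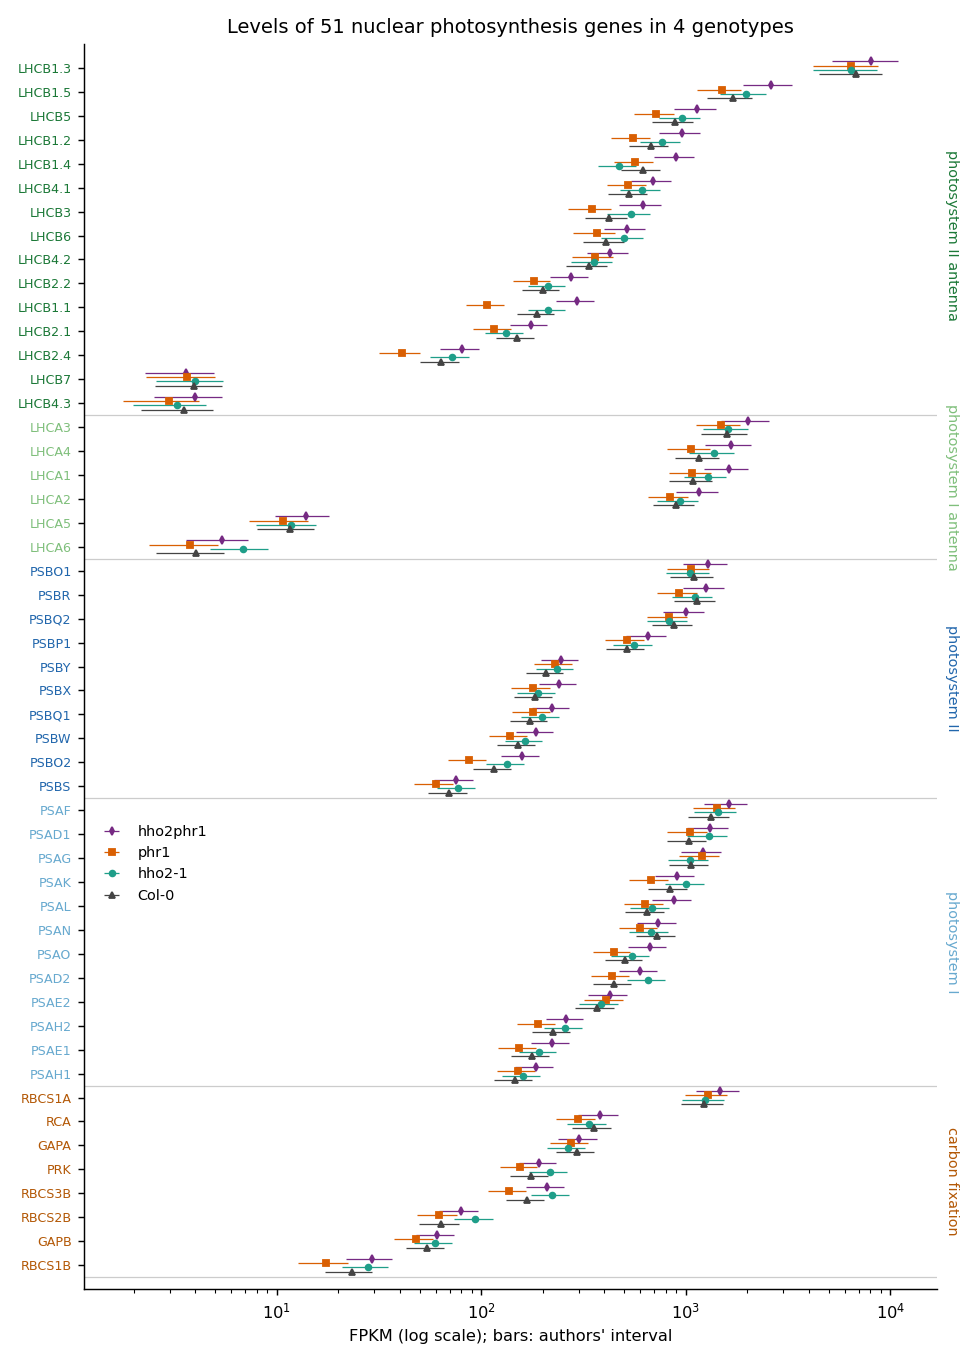
FPKM (log axis) of the 51 genes in hho2phr1, phr1, hho2-1 and Col-0, with the authors' interval as a bar, grouped by complex and sorted by mean level. LHCB1.3 reached 8056 FPKM in hho2phr1, whereas LHCB4.3 stayed at 3.97 FPKM or less, and the phr1 point lies left of the others for most of the genes.

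Most of the genes had their highest level in the double mutant and their lowest in phr1. Of the 51, 43 were highest in hho2phr1 and the other 8 in hho2-1, while 36 were lowest in phr1, 8 in Col-0, 6 in hho2-1 and 1 in hho2phr1. Among all genes compared, 27.3% were highest in hho2phr1 and 22.7% were lowest in phr1. The 8 genes that peaked in hho2-1 were LHCB7, LHCA6, PSBS, PSAD2, PSAK, RBCS2B, RBCS3B and PRK.

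Differences between 2 libraries are given as log2 of the ratio of FPKM + 1, and a gene is counted as higher or lower where this ratio was at least 1.5-fold (0.585 on the log2 scale). The 5 comparisons draw on 4 libraries, so those that share a library are not independent. The contrast with the most of the 51 genes past this call was hho2phr1 against phr1, which asks what the hho2 allele does where PHR1 is impaired. In it 50 of the 51 genes were above 0, beside 48.4% of all 20353 genes compared. The count at least 1.5-fold higher was 14, beside 1.96% of all genes, and 0 of the 51 were at least 1.5-fold lower, beside 1.56%. The authors' intervals were apart for 7 of the 51, beside 1.09% of all genes. The median difference of the 51 was 0.43 (1.34-fold), beside -0.01 over all genes compared. Highly expressed genes as a class did not stand higher: the other 1346 genes with at least 100 FPKM in every library had a median of -0.02, with 43.6% above 0, whereas all 41 photosynthesis genes at that level were above 0. In the same comparison the root markers had a median of 0.05, with 10 of 17 above 0, and the shoot markers had a median of -0.06, with 5 of 13 above 0. Their part in the result was not tested.

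**Figure D2:**
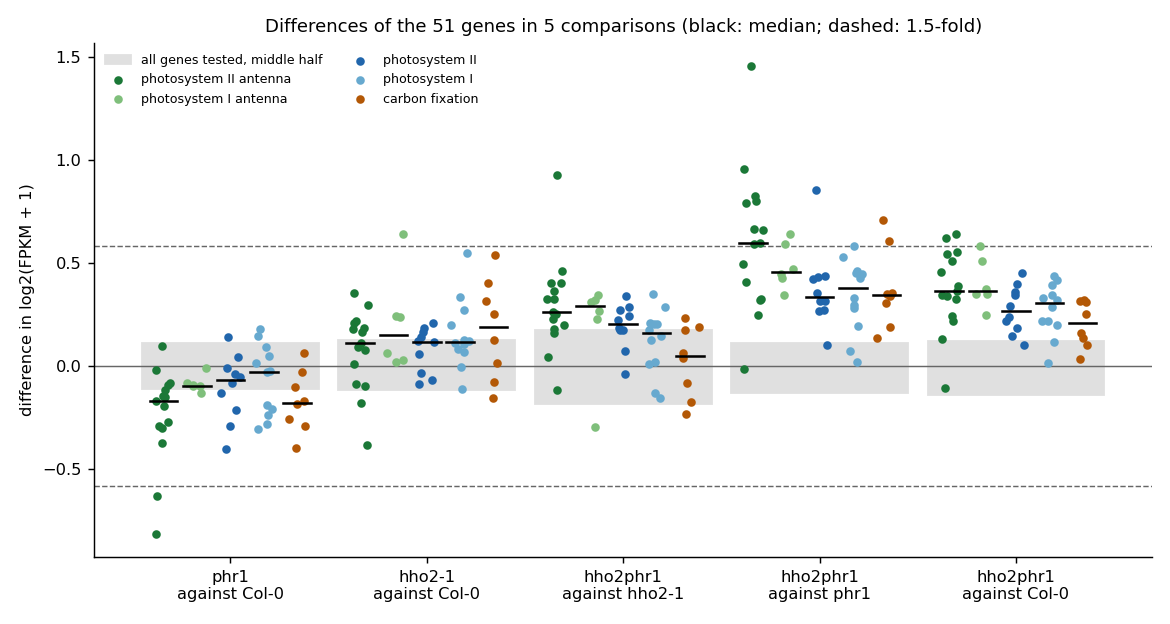
Difference in log2(FPKM + 1) for each of the 51 genes (points, coloured by complex) in the 5 comparisons, with the median of each complex as a black line, the span from the lower to the upper quartile of all genes compared as a grey band, and 1.5-fold as dashed lines. In hho2phr1 against phr1 the median of the photosystem II antenna lies at 0.60, above the dashed line, whereas in phr1 against Col-0 it lies at -0.17.

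Within hho2phr1 against phr1 the antenna of photosystem II stood furthest from 0 by the median over single genes. By summed FPKM the order of the antennas was the other way, at 0.50 for photosystem II and 0.54 for photosystem I. The median was 0.60 for the photosystem II antenna, 0.46 for the photosystem I antenna, 0.38 for photosystem I, 0.34 for carbon fixation and 0.34 for photosystem II. The 1.5-fold call was met by 9 of 15 genes of the photosystem II antenna, 2 of 6 of the photosystem I antenna and 1 of 10 of photosystem II. It was met by 0 of 12 of photosystem I and 2 of 8 of carbon fixation, beside 1.96% of all genes. The 9 include copies of LHCB1 and of LHCB2, which are close in sequence. Summed, the LHCB1 copies differed by 0.48, under the call, and the LHCB2 copies by 0.65. The nearest genes on each side of the call were LHCA1, at 0.59, and PSAO, at 0.58. Across the 51 genes, which share these libraries and are not independent, Spearman's rho between mean level and difference was -0.02.

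The upstream sequences of 4 genes are shown because LHCB1.1 and LHCB2.4 had the largest differences of the 51 in hho2phr1 against phr1, LHCA4 had the largest of the photosystem I antenna, and PSAG had the lowest difference of the photosystem I subunits. Each is the 250 bases before the annotated gene start in the TAIR10.1 reference, read 5′ to 3′ on the strand of the gene. Capitals mark a match, on either strand, to the G-box, which reads CACGTG on both strands, or to a sequence reported to be bound by GLK factors, here the GLK motif, which reads CCAATC. On the opposite strand the GLK motif shows as GATTGG. Neither motif overlaps the other in these windows. LHCB1.1 lies at chr1:10475970-10476219 on the minus strand and holds neither motif. LHCB2.4 lies at chr3:10255656-10255905 on the plus strand, with 1 G-box and 1 GLK motif. LHCA4 lies at chr3:17495034-17495283 on the minus strand, with 1 G-box and 2 GLK motifs. PSAG lies at chr1:20803450-20803699 on the minus strand and holds neither.
LHCB1.1: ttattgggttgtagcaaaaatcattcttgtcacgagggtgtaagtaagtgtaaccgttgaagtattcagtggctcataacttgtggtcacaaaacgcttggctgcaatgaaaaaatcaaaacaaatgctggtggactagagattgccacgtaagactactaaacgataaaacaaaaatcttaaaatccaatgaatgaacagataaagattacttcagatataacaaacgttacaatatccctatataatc
LHCB2.4: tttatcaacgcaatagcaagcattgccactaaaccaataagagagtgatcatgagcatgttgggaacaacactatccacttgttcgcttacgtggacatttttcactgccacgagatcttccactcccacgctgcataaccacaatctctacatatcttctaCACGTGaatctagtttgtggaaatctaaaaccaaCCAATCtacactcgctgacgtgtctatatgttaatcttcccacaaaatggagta
LHCA4: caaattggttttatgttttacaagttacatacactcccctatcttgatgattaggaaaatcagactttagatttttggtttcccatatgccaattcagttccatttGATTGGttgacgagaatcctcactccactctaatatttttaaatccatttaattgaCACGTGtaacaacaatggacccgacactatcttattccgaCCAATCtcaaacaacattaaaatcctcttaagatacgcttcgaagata
PSAG: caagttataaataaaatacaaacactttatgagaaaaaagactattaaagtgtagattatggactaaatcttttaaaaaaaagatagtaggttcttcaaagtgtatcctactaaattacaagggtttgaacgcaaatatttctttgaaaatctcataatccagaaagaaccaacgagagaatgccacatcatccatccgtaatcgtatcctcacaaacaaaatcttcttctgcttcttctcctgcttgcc

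Among the 5 genes of LHCB1, the major trimeric light-harvesting protein, LHCB1.1, the least abundant copy, differed most. LHCB1.1 (AT1G29920, CAB2, TAIR10 chromosome 1, 10474784 to 10475959) stood at 294 FPKM in hho2phr1, 106 in phr1, 213 in hho2-1 and 188 in Col-0. It was 2.74-fold higher in hho2phr1 than in phr1 (1.46 on the log2 scale), with intervals of 232.1 to 355.0 and 84.1 to 128.5 FPKM that were apart, and it had the largest difference of the 51. LHCB1.2 (AT1G29910) stood at 959 FPKM in hho2phr1, 550.1 in phr1, 766 in hho2-1 and 674 in Col-0. LHCB1.5 (AT2G34420) stood at 2603 FPKM in hho2phr1, 1505 in phr1, 1971 in hho2-1 and 1694 in Col-0. Both were higher in hho2phr1 than in phr1, by 0.80 and 0.79 on the log2 scale, with intervals apart, and both were lowest in phr1. LHCB1.3, by far the most abundant copy, differed by 0.32 between hho2phr1 and phr1, with overlapping intervals.

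LHCB1.4 (AT2G34430, chromosome 2, 14524756 to 14525763) was among the 6 genes with their lowest level in hho2-1. It stood at 896 FPKM in hho2phr1, 567 in phr1, 471 in hho2-1 and 615 in Col-0. LHCB1.3, PSBO1, PSBQ2 and GAPA shared this order of the libraries. The interval of LHCB1.4 in hho2phr1, 697 to 1095 FPKM, lay apart from those in phr1 and hho2-1 and overlapped that in Col-0. Its neighbour LHCB1.5, whose interval in the authors' table is shared with another gene, had its second highest level in hho2-1. The copies are close in sequence: by coding sequence LHCB1.1 is 96.1% identical to LHCB1.3 and 95.6% to LHCB1.2, and LHCB1.4 is 91.4% identical to LHCB1.5. How the authors' tool divided reads between copies is not given in the sources used here, so the values of single copies are uncertain. The 5 copies summed gave 12807 FPKM in hho2phr1, 9166 in phr1, 9839 in hho2-1 and 9987 in Col-0. The sum was 0.48 higher on the log2 scale in hho2phr1 than in phr1, under the 1.5-fold call.

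The LHCB2 and LHCB3 proteins join LHCB1 in the antenna trimers. LHCB2.4 (AT3G27690, chromosome 3, 10255947 to 10257011) stood at 80.2 FPKM in hho2phr1, 40.9 in phr1, 71.6 in hho2-1 and 63.8 in Col-0. It was 1.94-fold higher in hho2phr1 than in phr1, with intervals apart, and phr1 was the low library. LHCB3 (AT5G54270) stood at 617 FPKM in hho2phr1, 347 in phr1, 538 in hho2-1 and 420.1 in Col-0. It was 1.77-fold higher in hho2phr1 than in phr1 with intervals apart, but it shares its interval with another gene in the authors' table. LHCB2.1 (AT2G05100) and LHCB2.2 (AT2G05070), 96.6% identical in coding sequence, were each 1.51-fold higher in hho2phr1 than in phr1, with overlapping intervals. LHCB2.1 stood at 174 FPKM in hho2phr1, 115 in phr1, 132 in hho2-1 and 149.5 in Col-0. LHCB2.2 stood at 274 FPKM in hho2phr1, 181 in phr1, 213 in hho2-1 and 199.7 in Col-0. The 3 genes summed were 0.65 higher on the log2 scale in hho2phr1 than in phr1.

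The monomeric antenna proteins LHCB4, LHCB5 and LHCB6 link the trimers to the photosystem II core. LHCB5 (AT4G10340) stood at 1140 FPKM in hho2phr1, 718 in phr1, 957 in hho2-1 and 884 in Col-0, and was 1.59-fold higher in hho2phr1 than in phr1. LHCB6, LHCB4.1, LHCB4.3 and LHCB4.2 had differences of 0.49, 0.41, 0.33 and 0.25, none past 1.5-fold. LHCB7 (AT1G76570), a relative of these proteins, stood at 3.61 FPKM in hho2phr1, 3.66 in phr1, 4.0 in hho2-1 and 3.96 in Col-0. It was the 1 gene of the 51 below 0 in hho2phr1 against phr1, at -0.01, and its 4 intervals overlapped.

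In the antenna of photosystem I all 6 genes were above 0 in hho2phr1 against phr1. LHCA3 (AT1G61520), the most abundant, stood at 2022 FPKM in hho2phr1, 1482 in phr1, 1617 in hho2-1 and 1586 in Col-0. LHCA4 (AT3G47470, chromosome 3, an interval of 17486765 to 17495033 shared with another gene) stood at 1660 FPKM in hho2phr1, 1064 in phr1, 1380 in hho2-1 and 1167 in Col-0. LHCA1 (AT3G54890) stood at 1624 FPKM in hho2phr1, 1076 in phr1, 1278 in hho2-1 and 1085 in Col-0. LHCA4 and LHCA1, whose proteins pair with each other in the antenna belt, were 1.56-fold and 1.51-fold higher in hho2phr1 than in phr1, with overlapping intervals. LHCA2 and LHCA3 had differences of 0.47 and 0.45. In LHCA1, LHCA2, LHCA3 and LHCA4 the library of hho2phr1 was the highest of the 4. LHCA5 and LHCA6, which encode minor proteins that attach the NDH complex to photosystem I, were low. LHCA5 had the lowest difference of the group, at 0.34, with 13.9 FPKM in hho2phr1, 10.8 in phr1, 11.8 in hho2-1 and 11.6 in Col-0. LHCA6 stood at 5.42 FPKM in hho2phr1, 3.77 in phr1, 6.87 in hho2-1 and 4.04 in Col-0, the highest value being in hho2-1.

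Among the photosystem II subunits, PSBO2 stood apart from the others. PSBO2 (AT3G50820, chromosome 3, 18890876 to 18892426), the minor copy of the manganese-stabilizing protein of the oxygen-evolving complex, stood at 158 FPKM in hho2phr1, 87.0 in phr1, 133 in hho2-1 and 115 in Col-0. It was 1.81-fold higher in hho2phr1 than in phr1 with intervals apart. PSBO1 (AT5G66570), the major copy, stood at 1279 FPKM in hho2phr1, 1059 in phr1, 1048 in hho2-1 and 1097 in Col-0, a difference of 0.27 between hho2phr1 and phr1. PSBO2 therefore made 0.124 times the level of PSBO1 in hho2phr1 and 0.0822 times in phr1. The coding sequences of this pair are 83.6% identical. The other oxygen-evolving proteins PSBP1, PSBQ1 and PSBQ2 had differences of 0.35, 0.31 and 0.27. PSBR, PSBX, PSBW and PSBS, the last being the sensor of energy-dependent quenching, had 0.44, 0.43, 0.42 and 0.32. PSBY (AT1G67740) had the lowest, 0.10, with 246 FPKM in hho2phr1, 229 in phr1, 234 in hho2-1 and 208 in Col-0.

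The photosystem I subunits were all above 0 in hho2phr1 against phr1 and none met the 1.5-fold call. PSAF (AT1G31330), the plastocyanin-docking subunit and the most abundant, stood at 1619 FPKM in hho2phr1, 1416 in phr1, 1435 in hho2-1 and 1327 in Col-0, with a difference of 0.19 between hho2phr1 and phr1. PSAO (AT1G08380), the highest by difference, stood at 665 FPKM in hho2phr1, 444 in phr1, 545 in hho2-1 and 506 in Col-0. PSAG (AT1G55670), the lowest by difference at 0.02, stood at 1215 FPKM in hho2phr1, 1197 in phr1, 1052 in hho2-1 and 1057 in Col-0. In PSAG the values in hho2phr1 and phr1 lay above those in hho2-1 and Col-0, with all 4 intervals overlapping. Copies of 1 subunit had unlike values: PSAE1 was at 0.53 and PSAE2 at 0.07. PSAD2 was at 0.45 and PSAD1 at 0.33, and PSAH2 at 0.45 and PSAH1 at 0.28. For each of these copies the intervals of hho2phr1 and phr1 overlapped. PSAE2 and PSAH1 each share their interval in the authors' table with another gene. PSAD and PSAE form the stromal ridge where ferredoxin docks. PSAL, PSAK and PSAN had 0.46, 0.43 and 0.30.

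In carbon fixation the minor Rubisco small subunit genes differed more than the major one. RBCS1A (AT1G67090), the most abundant, stood at 1466 FPKM in hho2phr1, 1287 in phr1, 1245 in hho2-1 and 1231 in Col-0, a difference of 0.19 between hho2phr1 and phr1. RBCS1B (AT5G38430, chromosome 5, 15384117 to 15385247) stood at 29.2 FPKM in hho2phr1, 17.5 in phr1, 27.9 in hho2-1 and 23.3 in Col-0. RBCS3B (AT5G38410) stood at 209.8 FPKM in hho2phr1, 137 in phr1, 222 in hho2-1 and 168 in Col-0. RBCS1B and RBCS3B were 1.64-fold and 1.52-fold higher in hho2phr1 than in phr1, with overlapping intervals, and RBCS2B was at 0.34. These 3 genes lie side by side on chromosome 5, from 15377173 to 15385247, and their coding sequences are 96.7% to 97.3% identical, so their single values carry the limit named for LHCB1. Summed, they were 0.55 higher on the log2 scale in hho2phr1 than in phr1. RCA, GAPB, PRK and GAPA had differences of 0.36, 0.35, 0.31 and 0.14. GAPA (AT3G26650), the lowest, stood at 302 FPKM in hho2phr1, 275 in phr1, 265 in hho2-1 and 295 in Col-0.

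**Figure D3:**
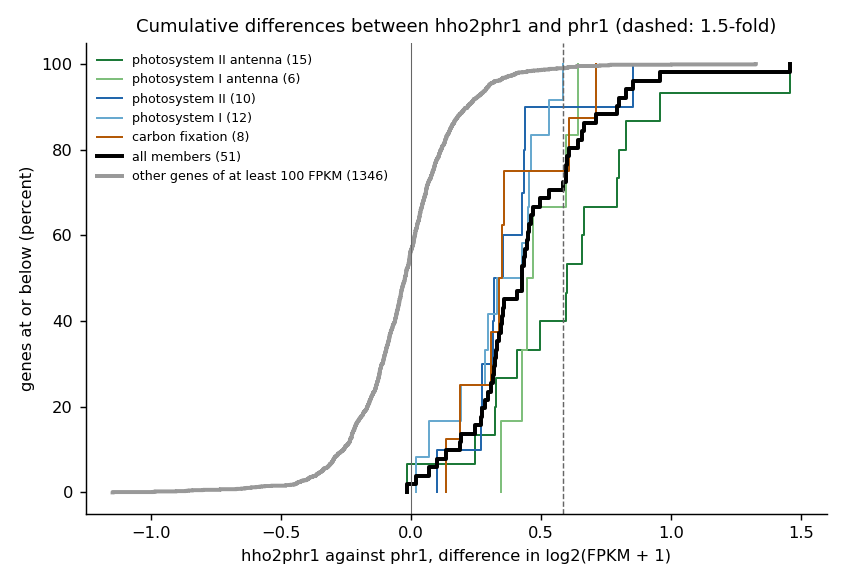
Percent of genes at or below each difference in log2(FPKM + 1) between hho2phr1 and phr1, for the 5 complexes, for the 51 genes together (black) and for the other 1346 genes with at least 100 FPKM in every library (grey). The grey curve crosses 0 with 43.6% of its genes above it, whereas 50 of the 51 photosynthesis genes lie above 0 and 9 of the 15 genes of the photosystem II antenna lie past 1.5-fold (dashed).

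In phr1 against Col-0, which asks what depends on PHR1 where HHO2 is intact, the genes were mostly slightly lower. Of the 51, 9 were above 0, beside 49.5% of all genes compared, and the median was -0.12 (0.922-fold) beside 0.00. The counts past 1.5-fold were 2 lower, beside 1.41% of all genes, and 0 higher, beside 2.08%. These were LHCB1.1, at -0.82 (0.568-fold) with intervals apart, and LHCB2.4, at -0.63 (0.646-fold) with overlapping intervals. The authors' intervals were apart for 1 of the 51, beside 1.25% of all genes, so at the level of single genes the count was near the background. Medians were -0.18 for carbon fixation, -0.17 for the photosystem II antenna, -0.10 for the photosystem I antenna, -0.07 for photosystem II and -0.03 for photosystem I. PSAG, PSAE2 and PSBY were among the 9 above 0, at 0.18, 0.15 and 0.14. The other 1346 genes of at least 100 FPKM had a median of 0.02. Shoot markers had a median of -0.21 in the same comparison, with 3 of 13 above 0, and root markers -0.11, with 4 of 17 above 0. Their part in the result was not tested.

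In hho2-1 against Col-0, which asks what depends on HHO2 where PHR1 is intact, the genes were mostly slightly higher. Of the 51, 40 were above 0, beside 50.3% of all genes, and the median was 0.12 beside 0.00. The other genes of at least 100 FPKM leaned the other way, with a median of -0.09 and 25.5% above 0. The counts past 1.5-fold were 1 higher, beside 1.06% of all genes, and 0 lower, beside 1.37%, and the intervals were apart for 0 of the 51, beside 0.531%. The gene past 1.5-fold was LHCA6, at 1.56-fold, which rests on an estimated 296 fragments in hho2-1 and 186 in Col-0. PSAD2 and RBCS2B followed at 0.55 and 0.54, each 1.46-fold higher in hho2-1. PSAD2 stood at 598 FPKM in hho2phr1, 438 in phr1, 655 in hho2-1 and 447 in Col-0. LHCB1.4 was lowest, at -0.39, and LHCB2.1 was at -0.18. Median differences over single genes lay between 0.11 and 0.19 in the 5 complexes. By summed FPKM the photosystem II antenna and photosystem II were near 0, at 0.03 and 0.00. The photosystem I antenna was at 0.14, photosystem I at 0.16 and carbon fixation at 0.06 by the same measure. The shoot markers had a median of 0.00 here, with 7 of 13 above 0, and the root markers -0.10, with 6 of 17 above 0. Their part in the result was not tested.

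In hho2phr1 against hho2-1, where the plants differ in the phr1 allele and all carry the hho2 allele, the genes were mostly higher. Of the 51, 43 were above 0, beside 50.7% of all genes, and the median was 0.20 beside 0.01. The other genes of at least 100 FPKM were also higher on the whole here, with a median of 0.09 and 67.2% above 0. The counts past 1.5-fold were 1 higher, beside 3.79% of all genes, and 0 lower, beside 4.3%. The intervals were apart for 1 of the 51, beside 4.01%. Both counts were below the share of all genes. Among the other 1346 genes of at least 100 FPKM, 1.71% were at least 1.5-fold higher and 28 had intervals apart. Beside those genes the counts of the 51 did not stand out. The 1 gene in both counts was LHCB1.4, at 0.93 (1.90-fold). Medians were 0.29 for the photosystem I antenna, 0.26 for the photosystem II antenna, 0.20 for photosystem II, 0.16 for photosystem I and 0.05 for carbon fixation. The lowest were LHCA6, at -0.29, and RBCS2B, at -0.23. The shoot markers had a median of -0.28, with 3 of 13 above 0, and the root markers 0.07, with 10 of 16 above 0. Their part in the result was not tested.

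In hho2phr1 against Col-0, where both alleles differ, 50 of the 51 were above 0, beside 48.7% of all genes. The median was 0.32 beside -0.01, and the other genes of at least 100 FPKM had a median of 0.00. The counts past 1.5-fold were 2 higher, beside 3.25% of all genes, and 0 lower, beside 2.09%, and the intervals were apart for 1 of the 51, beside 2.38%. The 2 genes were LHCB1.1, at 0.64 with intervals apart, and LHCB1.5, at 0.62 with overlapping intervals. LHCA1, at 0.58, lay just inside 1.5-fold. LHCB7 was again the gene below 0, at -0.11. Medians ran from 0.37 in the photosystem II antenna to 0.21 in carbon fixation. The shoot markers went the other way, with a median of -0.23 and 1 of 13 above 0, and the root markers had a median of -0.06, with 5 of 17 above 0. Their part in the result was not tested.

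The hho2 allele was set against its absence in 2 pairs of libraries that share none: hho2phr1 against phr1, and hho2-1 against Col-0. For 44 of the 51 genes the difference was larger in the phr1 background, beside 50.5% of the 20044 genes compared in both. The median excess in the phr1 background was 0.34 on the log2 scale, beside 0.00 over all genes, and was 0.51 in the photosystem II antenna, 0.38 in the photosystem I antenna, 0.32 in photosystem II, 0.21 in carbon fixation and 0.16 in photosystem I. LHCB1.1 had the largest excess, with 1.46 in the phr1 background and 0.18 in the PHR1 background. LHCB1.4 and LHCB2.1 were higher with the hho2 allele in the phr1 background, by 0.66 and 0.60, and lower in the PHR1 background, at -0.39 and -0.18. The smallest was LHCA6, with 0.43 in the phr1 background and 0.64 in the PHR1 background. The same 4 libraries give the phr1 allele in both HHO2 backgrounds, with medians of 0.20 in hho2phr1 against hho2-1 and -0.12 in phr1 against Col-0. Of the 51, 34 were above 0 with the phr1 allele in the hho2-1 background and below 0 with it in the HHO2 background, beside 19.6% of all genes compared. With 1 library per genotype the difference between backgrounds was not tested, and genotype and library cannot be told apart.

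**Figure D4:**
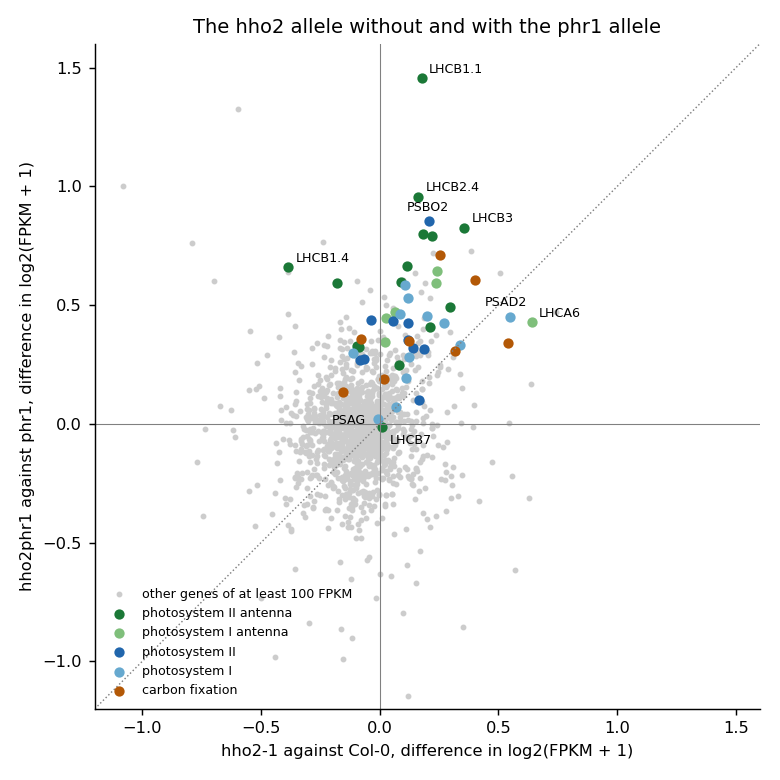
Difference in log2(FPKM + 1) with the hho2 allele in the phr1 background (hho2phr1 against phr1, vertical axis) and in the PHR1 background (hho2-1 against Col-0, horizontal axis) for the 51 genes, coloured by complex, and for the other 1346 genes with at least 100 FPKM in every library (grey). Of the 51 genes 44 lie above the dotted line of equal differences, and LHCB1.1 lies highest at 1.46.

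The GLK motif, the G-box and the I-box were found upstream of a larger share of these genes than of genes in general. Within the 250 bases before the gene start, on either strand, the GLK motif CCAATC was found in 12 of the 51, or 23.5%, against 10.2% of 27443 promoters. It was found in 7 of 15 genes of the photosystem II antenna, in 3 of 6 of the photosystem I antenna and in 0 of 12 of photosystem I. The G-box CACGTG was found in 11 of the 51, or 21.6%, against 6.49% of promoters, and the I-box GATAAG in 11, or 21.6%, against 12.3%. The motif bound by PHR1, P1BS with the letters GNATATNC, was found in 1 of the 51, PSBR, or 1.96%, against 5.46% of promoters. The evening element AAAATATCT was found in 1, LHCA5, or 1.96%, against 2.36%. LHCB1.1, with the largest difference in hho2phr1 against phr1, holds none of the 5 motifs in this window, and LHCA4 and LHCB2.4 hold 2 of them. These are matches of letters, not measured binding. The gene starts are those of the TAIR10.1 annotation, which differ from the authors' table for most genes. For PSBS the window ends at 16870220, whereas the authors' table starts the gene at 16871696. A motif absent from a window may therefore lie nearer the start in the authors' table.

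Other photosynthesis genes were looked up from lists to see whether the difference between hho2phr1 and phr1 extended beyond the 51. For scale, 48.4% of all genes compared were above 0 and 1.96% were at least 1.5-fold higher. Of 13 genes of electron transport and ATP synthase 11 were above 0, with a median of 0.23, and 1 was past 1.5-fold. LFNR2, a leaf ferredoxin-NADP reductase, was at 134 FPKM in hho2phr1, 85.4 in phr1, 151 in hho2-1 and 109 in Col-0, with the intervals of hho2phr1 and phr1 apart. FD1, a ferredoxin, was lowest in this list at -0.25. Of 11 other Calvin cycle enzymes 10 were above 0, with a median of 0.18 and 0 past 1.5-fold. HCEF1, a fructose-1,6-bisphosphatase, was highest at 0.35, and TPI, the plastid triose-phosphate isomerase, lowest at -0.12. Of 19 genes of chlorophyll synthesis 17 were above 0, with a median of 0.25, and 1 was past 1.5-fold. PORC, a light-dependent protochlorophyllide oxidoreductase, was at 34.7 FPKM in hho2phr1, 20.9 in phr1, 37.4 in hho2-1 and 25.5 in Col-0, with the intervals of hho2phr1 and phr1 apart. CHLI2, a magnesium chelatase subunit, was lowest at -0.02. GUN4, which stimulates magnesium chelatase, was at 0.14. All 3 lists had lower medians than the photosystem II antenna, at 0.60.

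Transcripts in a list of regulators of photosynthesis genes were spread around 0. Of 19 measured genes in this list 8 were above 0 in hho2phr1 against phr1, beside 48.4% of all genes, with a median of -0.06. The count past 1.5-fold was 0 in either direction, beside 1.96% of all genes higher and 1.56% lower. The list pools factors of different kinds, so its median describes no single kind. It also holds ELIP1, an early light-induced protein and not a regulator, at -0.13. PIF1, PIF4 and PIF5 were at 0.33, 0.34 and 0.28, and PIF3 was at -0.02. GLK1 was at 26.0 FPKM in hho2phr1, 27.5 in phr1, 25.4 in hho2-1 and 32.0 in Col-0. GLK2 was at 47.1 FPKM in hho2phr1, 57.2 in phr1, 49.1 in hho2-1 and 62.9 in Col-0. Both GLK genes, which encode activators of antenna and chlorophyll synthesis genes, were highest in Col-0, and their differences between hho2phr1 and phr1 were -0.08 and -0.27. HY5, a light-signalling bZIP factor, was at -0.06, and the GATA factors GNC and CGA1 were at -0.08 and -0.49, CGA1 at only 1.38 FPKM in hho2phr1 and 2.35 in phr1. SIG5, a plastid sigma factor, was highest in this list at 0.41. These are transcript levels and carry no measure of the factors' activity. Of 12 photosynthesis genes that the chloroplast encodes, 10 were listed at 0 in every library, in poly(A)+ RNA, so they give no measure of chloroplast transcripts. psbC was listed at 5.57 FPKM in hho2phr1, 1.47 in phr1, 0.767 in hho2-1 and 1.76 in Col-0. These values are low, and psbC shares its interval in the authors' table with psbD, which was listed at 0 in every library.

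**Figure D5:**
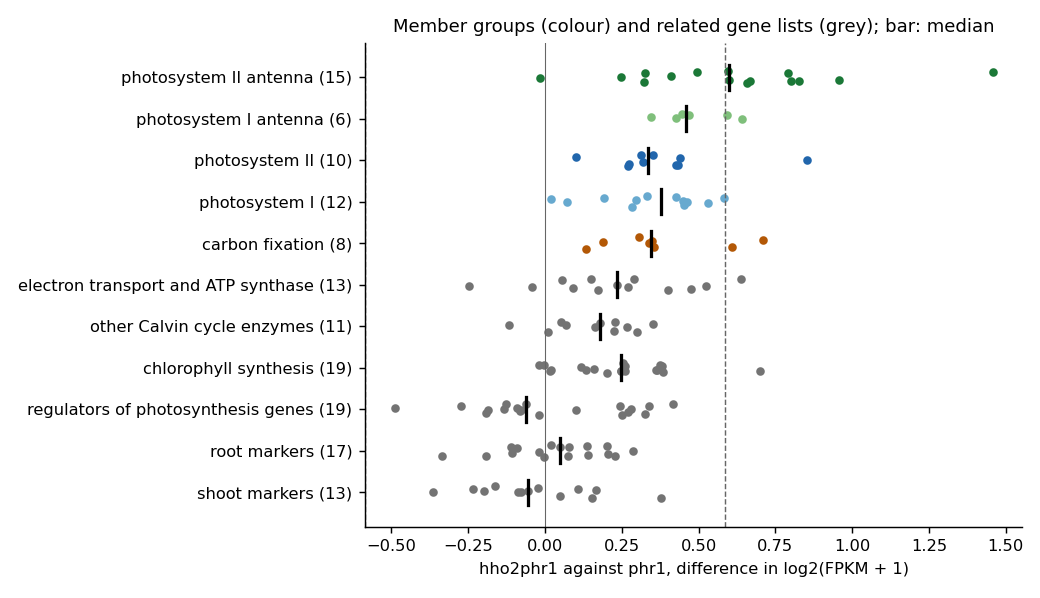
Difference in log2(FPKM + 1) between hho2phr1 and phr1 for each gene of the 5 complexes (colour) and of 6 related gene lists (grey), with the number of genes compared in brackets, the list median as a black bar and 1.5-fold as a dashed line. Medians fall from 0.60 in the photosystem II antenna to 0.25 in chlorophyll synthesis and -0.06 in both the list of regulators and the shoot markers.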

How the data were processed

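The deposited table gives FPKM per gene for 1 poly(A)+ library each of hho2phr1, phr1, hho2-1 and Col-0, with the authors' interval and a quantification status, per the file headers. Libraries were made with ScriptSeq v2, per the labels' protocols. Reads were processed with TopHat2 2.0.11 and Cuffdiff 2.2.1 on TAIR10, per the submitters' processing notes. The scaling between libraries, the annotation release and the handling of reads that map to several genes are not given in the sources used here. Value columns were matched to genotypes by name, and 0 value columns belonged to no known sample.

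Genes were looked up by locus identifier. Differences were computed as log2(FPKM + 1) with Python 3.11.15, numpy 2.4.6 and pandas 2.3.3, among genes that reached 1 FPKM in one library or the other, and called at 1.5-fold. The pseudocount of 1 understates differences of genes with low values. No test was run, since 1 library per genotype leaves no residual between replicates. The 51 genes, the related lists of 109 genes, the motifs and the call rule were chosen with earlier results of these data known. Named genes were the most abundant gene of each complex, those with the highest and lowest difference in hho2phr1 against phr1, and those past 1.5-fold in any comparison. In each related list they were the highest and lowest by the same difference, with GLK1, GLK2, HY5, GUN4, GNC, CGA1 and SIG5 named besides. Depth was estimated from the whole-fragment steps of FPKM times exon length less 205 bases, where 99.0% to 99.3% of values from 394 to 428 genes came out whole within 0.05 of a fragment. The calling script was tested on simulated data. Of the 51 genes 9 share an interval with another gene in the authors' table and 0 had the status FAIL. Upstream sequences were read from the TAIR10.1 genome and annotation, to which 27973 genes of the table matched, all on the same chromosome. Of these, 4531 had the same start and end in both. Alternatives changed the scaling, pseudocount, filter and fold, summed paralogs, or left out genes sharing an interval.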

Additional observations from a re-analysis of the deposited data

Results flagged for a closer look

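The phr1 allele went with opposite shifts in the median of the 51 genes in the 2 HHO2 backgrounds. Of the 51, 34 had this pattern as single genes, beside 19.6% of all genes compared. In hho2phr1 against hho2-1 the other genes of at least 100 FPKM were also higher, with a median of 0.09 and 67.2% above 0. The median difference was 0.203 in hho2phr1 against hho2-1 and -0.116 in phr1 against Col-0. Single genes past 1.5-fold in 1 of these comparisons did the same. LHCB1.1 differed by 0.463 in the hho2-1 background and by -0.816 in the HHO2 background. LHCB1.4 differed by 0.927 and -0.116, and LHCB2.4 by 0.162 and -0.631, in the same order of backgrounds. The authors' intervals were apart only for LHCB1.1 in the HHO2 background and for LHCB1.4 in the hho2-1 background.

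Among the genes past 1.5-fold with the hho2 allele in either PHR1 background, 2 antenna genes had differences of opposite sign in the 2 backgrounds. Other genes with opposite signs were under 1.5-fold in both. LHCB1.4 differed by 0.659 in hho2phr1 against phr1 and by -0.385 in hho2-1 against Col-0. LHCB2.1 differed by 0.595 and -0.18 in the same order. Each value rests on 1 library per genotype, and the differences between backgrounds were not tested.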

How the results depend on the processing

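Of 120 summary values under alternative settings 108 stayed within 1.5 times the count or within 0.1 (log2) of the median, and no median changed sign. Of the 108, 15 came from dropping the filter on low values. That could not alter the 51 genes, which all had at least 1 FPKM in every library. Another 15 came from scaling by the median ratio, whose factors lay between 0.989 and 1.0. The median difference of the 51 genes in hho2phr1 against phr1 lay between 0.409 and 0.430 under the other scalings, pseudocount and filters, with paralogs summed and with shared intervals left out, and was 0.434 over the 41 genes of at least 100 FPKM. Counts past 1.5-fold were less stable, being small. With paralog families summed, hho2phr1 against phr1 had 6 of 43 genes or families higher in place of 14 of 51, and phr1 against Col-0 had 0 lower, hho2phr1 against hho2-1 had 0 higher and hho2phr1 against Col-0 had 0 higher. At a 2-fold call, hho2phr1 against phr1 had 1 higher (LHCB1.1), and the counts were 0 lower in phr1 against Col-0 and 0 higher in hho2-1 against Col-0, in hho2phr1 against hho2-1 and in hho2phr1 against Col-0. For hho2-1 against Col-0 the count higher was 3 after scaling to equal sums without MT1A and 0 among genes of at least 10 FPKM. With genes that share an interval left out, hho2phr1 against Col-0 had 1 higher. The cause was not tested, apart from the smaller number of genes in the summed and filtered sets and the stricter fold. Setting the 51 genes against the other genes of at least 100 FPKM was chosen after seeing the data. All 255 differences of single genes stayed on their side of 1.5-fold after scaling by the median ratio. The factors of that scaling, 0.989 to 1.0, left little room for change, so this says little about the calls. No paired analysis was possible because each genotype has 1 library and no replicate number, and for the same reason no library could be left out in turn. Depth limits LHCB4.3, LHCB7, LHCA5 and LHCA6 most.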
